A study of Mus musculus with 6 samples.

Results

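The genes described are 10 mouse long noncoding RNA genes known as hosts of small nucleolar RNAs (snoRNAs): Gas5, Snhg1, Snhg3, Snhg5, Snhg6, Snhg8, Snhg12, Snhg15, Snhg17 and Snhg20. They were taken from the deposited expression table by an exact match of the gene symbol, which found all 10 members among 41079 listed genes, and all 10 were among the 12227 genes whose mean over the 6 libraries was at least 1 TPM, a measure of transcript abundance that corrects read counts for gene length and for the size of the library. The RNA came from D10, a clone of mouse helper T cells, and poly(A)+ molecules were sequenced in 6 libraries. In 3 of them the cells had spent 24 h at 26°C, referred to as cold-acclimated, and in the other 3 the same time at 37°C, referred to as non-acclimated. Both groups are labelled as the same line, kept by the study's methods in medium with interleukin-2, and no genetic change or other treatment is named for either. Temperature was the only difference between the groups that the labels assign to libraries. Old and new extraction batches are also mentioned, without saying which library belongs to which. The data describe 1 clone in culture.

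A snoRNA host gene is transcribed and spliced like a messenger RNA. The snoRNAs are cut out of its introns and guide the chemical modification or the cleavage of ribosomal RNA, whereas the spliced exons usually encode no protein and are in many cases removed by nonsense-mediated decay, a pathway that degrades RNAs with premature stop codons once ribosomes reach them. Several of these genes, Gas5 and Snhg1 among them, are known to start with a terminal oligopyrimidine (5′TOP) tract, the run of C and T that also opens the messenger RNAs of ribosomal proteins, and the spliced Gas5 RNA is known to accumulate in growth-arrested lymphocytes.

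The 5′ ends are shown because such a tract would lie there. Each line gives 15 bases before and 25 bases from the annotated start of the gene in the deposited table (GRCm39), 5′ to 3′ on the gene's strand, with the longest uninterrupted run of C and T in capitals.
Gas5, chr1:160862156-160862195 (plus strand): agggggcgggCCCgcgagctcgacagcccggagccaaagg
Snhg1, chr19:8700836-8700875 (plus strand): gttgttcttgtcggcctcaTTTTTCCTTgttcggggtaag
Snhg3, chr4:132080973-132081012 (minus strand): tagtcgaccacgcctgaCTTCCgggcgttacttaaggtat
Snhg5, chr9:88404926-88404965 (minus strand): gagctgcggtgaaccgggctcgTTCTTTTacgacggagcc
Snhg6, chr1:10014319-10014358 (minus strand): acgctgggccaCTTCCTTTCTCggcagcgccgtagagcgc
Snhg8, chr3:123301961-123302000 (minus strand): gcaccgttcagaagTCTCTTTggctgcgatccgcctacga
Snhg12, chr4:132035974-132036013 (plus strand): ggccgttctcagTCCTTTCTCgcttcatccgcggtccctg
Snhg15, chr11:6478736-6478775 (minus strand): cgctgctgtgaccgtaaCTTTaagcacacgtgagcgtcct
Snhg17, chr2:158203418-158203457 (minus strand): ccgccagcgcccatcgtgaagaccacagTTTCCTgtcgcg
Snhg20, chr11:116967594-116967633 (plus strand): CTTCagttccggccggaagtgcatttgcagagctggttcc
The run had at least 6 bases in 6 of the 10 genes, and a run of that length was found in 36.9% of the 12209 tested genes with such a window. The median of the longest run was 6.5 bases in the host genes and 5 over all these genes. Snhg6 held the longest run, with 11 bases that began 4 bases before the annotated start, followed by Snhg1 and Snhg12 with 9 bases each. In Gas5 the longest run in this window had 3 bases. All 9 members with a RefSeq promoter sequence had the same 40 bases somewhere in it, which does not check the position of the start. The annotated start need not be the start used in these cells.

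The libraries held between 16899628 and 31290854 reads on genes, recovered from the steps between the TPM values, and each host gene rested on between 67 and 1875 reads per library. Of 8 T cell markers all were above the limit of 1 TPM on average, with summed levels of 3245 to 4485 TPM in non-acclimated and 3982 to 4717 TPM in cold-acclimated libraries. The label of a CD4+ cell did not hold for all libraries. Cd4 was at 1.09, 0.0351 and 309.7 TPM in non-acclimated replicates 1, 2 and 3 and at 1.30, 0.352 and 328 TPM in their cold-acclimated counterparts, so Cd4 was near 0 in both libraries of replicates 1 and 2. None of 6 B cell markers reached a mean of 1 TPM (summed level up to 1.11 TPM at 37°C and 1.07 TPM at 26°C, with Ms4a1 and Blnk at 0 throughout). Of 6 macrophage and monocyte markers 2 did, Cd68 and Lyz2, with a summed level of 2.46 to 15.9 TPM at 37°C and 2.69 to 21.2 TPM at 26°C, highest in replicate 3, and with Cd14 at 0. Replicate 2 differed as well. Cd28 was at 7.35 and 5.61 TPM in its libraries and at 27.9 to 54.5 TPM elsewhere, and Cd3d at 64.3 and 78.6 against 240 to 332 TPM. Lat and Gata3 were instead highest in replicate 2 in both conditions. What these differences between replicates contribute was not tested, and results are given with and without replicate 3. No fit left out both libraries of replicate 2. In bulk RNA, a change in the number of cells that express a gene and a change in the RNA per cell cannot be told apart.

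All 10 host genes had a higher mean in cold-acclimated T cells, and 1 of them, Snhg17, passed the test in a fit without a replicate term. With the replicate as a term in the fit, Snhg6 passed as well (limma, adjusted p = 0.038). Genes were tested with limma on log2(TPM + 1), a scale on which the change of a gene with low TPM is understated, and were called at a Benjamini-Hochberg adjusted p under 0.05 where the log2 fold change was also 1 or more in either direction. By this rule 2.63% of the 12227 tested genes were called upregulated and 16.0% downregulated, and 1 of 10 and 0 of 10 host genes were. At an unadjusted p under 0.05, 4 host genes were higher and 0 lower in cold-acclimated cells, against 7.75% and 30.0% of all tested genes, and voom on the recovered reads called 3 upregulated (against 6.27%) and 0 downregulated. The log2 fold changes of the host genes ran from 0.26 to 2.11 with a median of 0.55, whereas the median of all tested genes was -0.34 and 33.5% of these were above 0. Another scaling, median of ratios, divides a library by its median ratio to the geometric mean of every gene. The study's methods apply it to read counts, whereas here it was applied to the TPM values. After this rescaling, the median of all tested genes was 0.02 and that of the host genes 0.94. Relative to all tested genes the median of the host genes was thus 0.89 higher with TPM as deposited and 0.92 higher after rescaling. The rescaled values called 4 host genes upregulated, Snhg1, Snhg6, Snhg17 and Snhg20, against 6.56% of all tested genes.

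**Figure D1:**
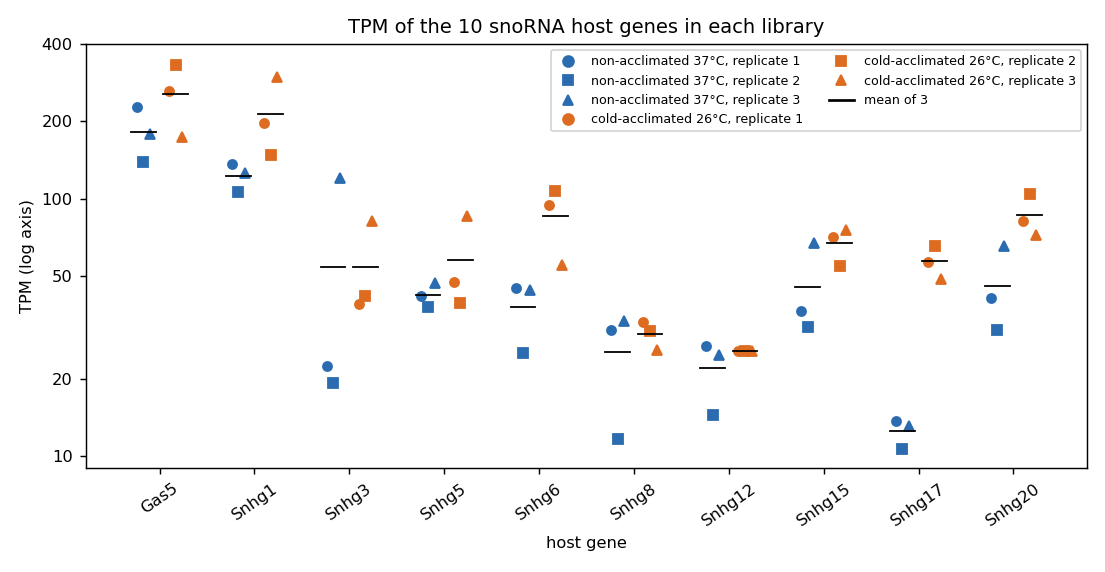
TPM (log axis) of the 10 host genes in the 3 non-acclimated (blue) and 3 cold-acclimated (orange) libraries, with 1 marker shape per replicate and a black line at each mean. Snhg17 lies between 10.7 and 13.7 TPM at 37°C and between 49.0 and 65.7 TPM at 26°C, and the Snhg3 library of non-acclimated replicate 3 stands apart from the other 2 at 37°C.

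Snhg17 (GRCm39 chr2:158195620-158203442, minus strand) showed the largest change of the 10 genes. It was at 13.7, 10.7 and 13.1 TPM in non-acclimated replicates 1, 2 and 3, whereas the cold-acclimated replicates held 57.0, 65.7 and 49.0 TPM. The lowest cold-acclimated library was thus far above the highest non-acclimated one. The mean rose from 12.5 ± 1.62 (SD, n = 3) to 57.2 ± 8.35 TPM, a ratio of 4.58, and the log2 fold change was 2.11 ± 0.23 (SE; limma, adjusted p = 0.0067). It was called under all 15 other settings, with a log2 fold change between 2.00 and 2.68, and without replicate 3 it was 2.25 (limma, adjusted p = 0.0038). Snhg17 is a long noncoding RNA whose introns hold box H/ACA snoRNAs, the class that guides pseudouridine formation, and the gene length behind its TPM, read from the steps of the values, was 3172 bases, by far the longest of the 10. It rested on 278 to 499 reads at 37°C and on 1565 to 1875 reads at 26°C.

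Snhg6, Snhg20 and Snhg1 also had every cold-acclimated library above every non-acclimated one, so that 4 of 10 host genes did not overlap between the conditions, against 9.69% of all tested genes. Snhg6 (chr1:10012250-10014343, minus strand), host of a box C/D snoRNA, was at 45.2, 25.1 and 44.1 TPM without and at 94.9, 108 and 55.4 TPM with cold acclimation. Its log2 fold change was 1.14 ± 0.35 (limma, adjusted p = 0.054), just outside the threshold, and 1.54 after rescaling (limma, adjusted p = 0.035). With replicate numbers as pairs in the fit, Snhg6 was called with TPM as deposited too (limma, adjusted p = 0.038). Both cold-acclimated libraries of replicates 1 and 2 lay well above that of replicate 3, and without replicate 3 the log2 fold change was 1.55 (limma, adjusted p = 0.016). Snhg20 (chr11:116967609-116969781, plus strand) was at 41.1, 30.8 and 65.7 TPM without and at 82.1, 104 and 72.7 TPM with cold acclimation, and the libraries of replicate 3 were again the closest to each other. The log2 fold change of Snhg20 was 0.95 ± 0.32 (limma, adjusted p = 0.070), with 1.34 after rescaling (adjusted p = 0.035) and 1.35 without replicate 3 (adjusted p = 0.013). No snoRNA gene of the table lies within Snhg20.

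Snhg1 (chr19:8700851-8703690, plus strand), the host of Snord22 and of 7 other snoRNA genes, was at 136, 106 and 127 TPM in non-acclimated and at 198, 148 and 298 TPM in cold-acclimated replicates 1, 2 and 3. Here replicate 3 had the highest cold-acclimated level rather than the lowest. The log2 fold change was 0.75 ± 0.29 (limma, adjusted p = 0.11), with 1.14 after rescaling (adjusted p = 0.030). Without replicate 3 it was 0.50 (limma, adjusted p = 0.18), so the 2 libraries of that replicate carried part of the difference.

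Snhg15 (chr11:6475591-6478760, minus strand), a short-lived RNA that hosts Snora9, had 2 non-acclimated libraries well below the cold-acclimated ones and the remaining one within their range. Its levels were 36.7, 31.9 and 67.4 TPM at 37°C and 71.3, 55.0 and 75.5 TPM at 26°C. The log2 fold change was 0.62 ± 0.32 (limma, adjusted p = 0.20), with 1.01 after rescaling (adjusted p = 0.061) and 0.85 without replicate 3 (adjusted p = 0.040, under the size limit of 1). Each cold-acclimated library was above the non-acclimated library of the same replicate.

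Gas5 (chr1:160862171-160866109, plus strand), the growth-arrest-associated member and the most abundant one, was at 227, 139 and 179 TPM without and at 263, 331 and 174 TPM with cold acclimation. The conditions overlapped, with the cold-acclimated library of replicate 3 below 2 of the 3 non-acclimated ones. The log2 fold change was 0.47 ± 0.31 (limma, adjusted p = 0.31), and its 95% confidence interval ran from -0.25 to 1.20. Without replicate 3 it was 0.73 (limma, adjusted p = 0.12), and with both rescaling and replicate 3 left out it was 1.19 (adjusted p = 0.046).

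The change of Snhg3 (chr4:132079244-132080997, minus strand), host of the U17 snoRNAs Snora73a and Snora73b, differed in sign between replicates. Its levels were 22.4, 19.2 and 121 TPM at 37°C and 39.1, 41.9 and 82.3 TPM at 26°C. The libraries of replicate 3 stood at 5.82 times the mean of the other 2 in non-acclimated and at 2.03 times in cold-acclimated cells, and Snhg3 was higher in cold-acclimated cells in replicates 1 and 2 and lower in replicate 3. Over all 6 libraries the log2 fold change was 0.44 ± 0.68 (limma, adjusted p = 0.68), whereas without replicate 3 it was 0.93 ± 0.23 (adjusted p = 0.025). Snhg3 thus had the widest error of the 10 genes.

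Snhg5, Snhg8 and Snhg12 overlapped between the conditions and were called in none of the 16 settings. Snhg5 (chr9:88403105-88404950, minus strand), the host of the U50 snoRNAs, was at 42.0, 38.2 and 47.0 TPM at 37°C and at 47.7, 39.3 and 86.0 TPM at 26°C, so that a single library, cold-acclimated replicate 3, stood clearly above the rest (log2 fold change 0.36 ± 0.32; limma, adjusted p = 0.45). Snhg8 (chr3:123301201-123301985, minus strand) was at 30.8, 11.6 and 33.6 TPM without and at 33.1, 30.7 and 26.0 TPM with cold acclimation (log2 fold change 0.36 ± 0.40; limma, adjusted p = 0.56). Snhg12 (chr4:132035989-132038335, plus strand) was at 26.7, 14.5 and 24.7 TPM without and at 25.8, 25.7 and 25.5 TPM with cold acclimation (log2 fold change 0.26 ± 0.28; limma, adjusted p = 0.54). In both Snhg8 and Snhg12 the difference rested on the low level of non-acclimated replicate 2, and without that library the log2 fold changes were -0.11 and -0.0017. The 95% confidence intervals, from -0.58 to 1.29 for Snhg8 and from -0.40 to 0.92 for Snhg12, leave room for changes in either direction.

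**Figure D2:**
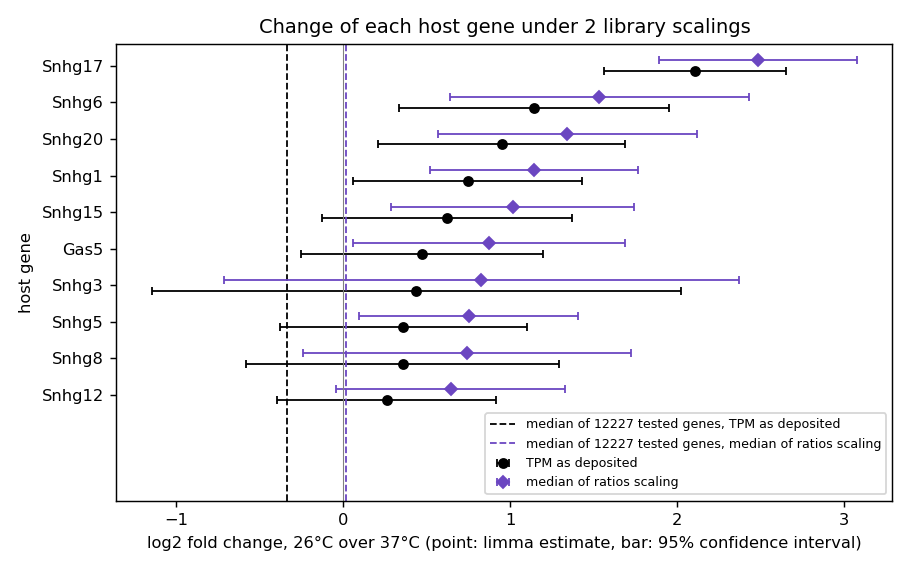
Log2 fold change (26°C over 37°C) of each host gene with TPM as deposited (black circles) and after median of ratios scaling (purple diamonds). Points are limma estimates, bars are 95% confidence intervals and dashed lines are the medians of all tested genes (-0.34 and 0.02), and all 10 genes lie to the right of both lines.

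The order of the genes differed between the temperatures. At 37°C Gas5 (182 ± 44.2 TPM, SD, n = 3) was above Snhg1 (123 ± 15.3), and Snhg17 was the lowest, below Snhg12 (22.0 ± 6.57). The neighbours in between, Snhg3, Snhg20, Snhg15, Snhg5, Snhg6, Snhg8 and Snhg12, had means of 54.2 down to 22.0 TPM and overlapped each other in this order, as Snhg1 did with Snhg3. At 26°C Gas5 (256 ± 78.7 TPM) and Snhg1 (215 ± 76.2) overlapped and stood above all others. Snhg20 (86.4 ± 16.3), Snhg6 (85.9 ± 27.2), Snhg15 (67.2 ± 10.8), Snhg5 (57.7 ± 24.9), Snhg17 (57.2 ± 8.35) and Snhg3 (54.5 ± 24.1) followed, each overlapping its neighbour, and Snhg8 (29.9 ± 3.65) and Snhg12 (25.7 ± 0.104) came last and apart. Snhg17 thus had rank 10 at 37°C and rank 7 at 26°C, and Snhg6 had ranks 7 and 4. Snhg3, whose mean hardly differed, moved furthest, from rank 3 to rank 8. Its mean at 37°C (54.2 ± 57.9 TPM) rested on replicate 3, with 121 TPM against 22.4 and 19.2 TPM in replicates 1 and 2. TPM is corrected for gene length, but the order between genes depends on the lengths used, which were read from the steps of the values. For Snhg1, Snhg6, Snhg12 and Snhg15 these were 476, 407, 606 and 592 bases. The exons of their canonical GENCODE transcripts sum to 1130, 2253, 2842 and 1751 bases. Gas5 and Snhg17 were closer, with 620 and 3172 against 669 and 3032 bases. Levels of different genes are thus less certain to compare than those of 1 gene between temperatures.

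Summed over the 10 genes, the level was 622, 427 and 722 TPM in non-acclimated replicates 1, 2 and 3, and 912, 950 and 945 TPM after cold acclimation. The cold-acclimated libraries lay close together and above all non-acclimated ones, with means of 935 ± 20.6 (SD, n = 3) and 590 ± 150 TPM and a ratio of 1.58. Gas5 and Snhg1 made up between 42.4% and 58.4% of the sum in each library.

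**Figure D3:**
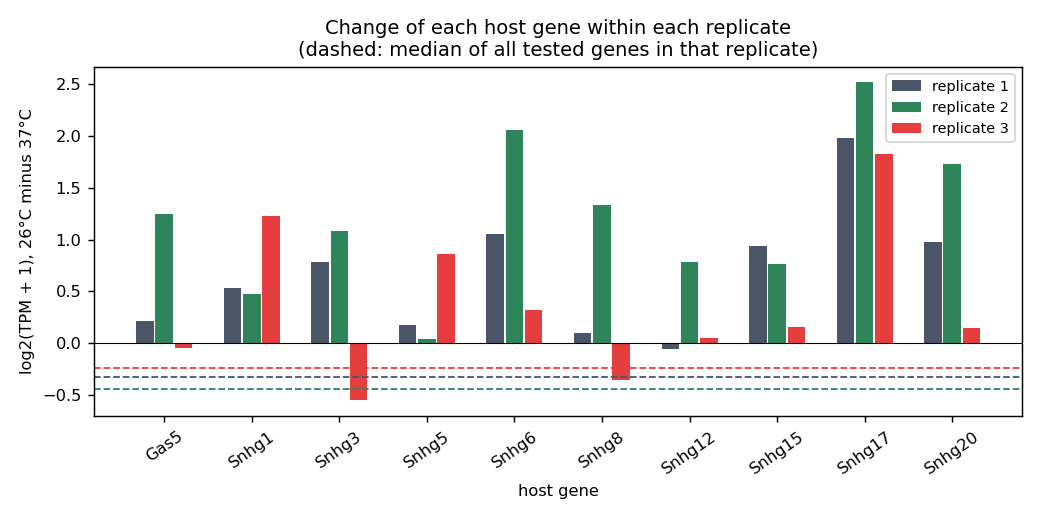
Difference in log2(TPM + 1) between the cold-acclimated and the non-acclimated library of the same replicate, 1 bar per replicate and host gene; dashed lines are the medians of all tested genes in that replicate. The host genes have medians of 0.66, 1.17 and 0.15 in replicates 1, 2 and 3, against -0.32, -0.44 and -0.24 for all tested genes.

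Within replicates, 9, 10 and 7 of the 10 host genes were higher in the cold-acclimated library in replicates 1, 2 and 3. The median difference was 0.66, 1.17 and 0.15 on the log2 scale, which is 0.98, 1.61 and 0.39 above the median of all tested genes in the same replicate. Replicate 3, the one with Cd4, thus had the smallest shift in the host genes. Snhg1, Snhg5, Snhg6, Snhg15, Snhg17 and Snhg20 were higher in all 3 replicates, 6 of 10, against 18.2% of all tested genes. The differences below 0 were those of Gas5 (-0.04), Snhg3 (-0.55) and Snhg8 (-0.36) in replicate 3 and of Snhg12 (-0.05) in replicate 1. With the replicate as a term in the fit, 2 host genes were called, Snhg17 (limma, adjusted p = 0.0052) and Snhg6 (adjusted p = 0.038), against 3.75% of all tested genes, and with that term and rescaling together 5 were called, against 8.89%: Snhg1, Snhg6, Snhg15, Snhg17 and Snhg20. Without replicate 3 and with TPM as deposited, Snhg6, Snhg17 and Snhg20 were called, against 5.34%. With rescaling as well, 6 were called, Gas5, Snhg3, Snhg6, Snhg15, Snhg17 and Snhg20, against 11.5%. No host gene was called downregulated in any of these fits.

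The host genes contain 29 snoRNA genes of the deposited table within their ends and on their strand, 8 each in Gas5 and Snhg1, 4 in Snhg12, 2 each in Snhg3, Snhg5 and Snhg17, and 1 each in Snhg6, Snhg8 and Snhg15. In the GENCODE annotation of GRCm39, 24 of them lie in an intron of the host's canonical transcript and 5 overlap an exon of it, Snora9 in Snhg15 and all 4 in Snhg12. The canonical transcript of Snhg12 is annotated as 1 exon of 2842 bases, so any snoRNA gene inside it overlaps an exon. Places in other transcripts of the hosts were not examined. The following are shown because the comparison of hosts and snoRNAs turns on them, read from GRCm39, 5′ to 3′. Capitals mark the C box TGATGA near the 5′ end and the D box CTGA near the 3′ end of box C/D snoRNAs, which guide methylation of ribosomal RNA, or the ACA near the 3′ end of box H/ACA snoRNAs.
Gm23925, in Snhg17, chr2:158201718-158201849 (minus strand): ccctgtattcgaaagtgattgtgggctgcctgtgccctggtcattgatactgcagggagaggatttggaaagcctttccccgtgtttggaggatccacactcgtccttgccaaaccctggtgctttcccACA
Gm24411, in Snhg17, chr2:158198344-158198474 (minus strand): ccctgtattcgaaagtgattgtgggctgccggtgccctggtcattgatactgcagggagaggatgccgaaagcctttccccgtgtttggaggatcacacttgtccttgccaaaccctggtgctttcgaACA
Snora9, in Snhg15, chr11:6478033-6478165 (minus strand): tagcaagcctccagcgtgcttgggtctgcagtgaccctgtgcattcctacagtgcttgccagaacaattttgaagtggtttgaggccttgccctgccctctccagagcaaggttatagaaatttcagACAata
Snord87, in Snhg6, chr1:10012695-10012768 (minus strand): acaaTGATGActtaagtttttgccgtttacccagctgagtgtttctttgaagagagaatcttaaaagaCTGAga
Snord80, in Gas5, chr1:160865171-160865251 (plus strand): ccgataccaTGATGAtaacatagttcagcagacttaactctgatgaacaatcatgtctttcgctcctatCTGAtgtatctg
Gm22744, in Snhg1, chr19:8702456-8702520 (plus strand): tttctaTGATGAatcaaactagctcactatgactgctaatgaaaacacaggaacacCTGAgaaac
The boxes were searched on the gene's strand only, the C box starting within the first 20 bases, the D box in the last 14 bases and the ACA in the last 8 bases of genes longer than 110 bases. Both C/D boxes were found in 15 of the 29 hosted genes and the ACA in 7, against 20.9% and 41.0% of 1298 snoRNA genes searched. Gm23925 and Gm24411, both in Snhg17, matched at 124 of 132 aligned positions, so reads may have been split between them.

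Reads on the hosted snoRNA genes were few. RNA was selected by its poly(A) tail, which mature snoRNAs lack, and the 26 genes tested rested on a median of 8 reads per library and at most 89, so that they stand for whatever polyadenylated or carried-over RNA covered these intervals. Reads of a snoRNA gene and of the host's own unspliced RNA on the same strand cannot be told apart. Of the 26, 2 were called upregulated and 1 downregulated, against 2.63% and 16.0% of all tested genes, and 18 had a log2 fold change above 0, with a median of 0.34. After rescaling, 4 were called upregulated and 0 downregulated, against 6.56% and 8.80% of all tested genes. With the replicate as a term in the fit the numbers were 5 and 3, without replicate 3 they were 6 and 0, and without any 1 of the 4 libraries of replicates 1 and 2 they were 0 and 0. Over all tested genes these fits called 458 and 2679, 653 and 3088, and 59 to 78 and 345 to 600. With all 6 libraries and no such term the numbers were 321 and 1954, so fewer calls of any gene were made without 1 of those libraries. In the table as a whole 200 snoRNA genes were tested, of which 30 were called upregulated and 2 downregulated, with a median of 0.82.

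**Figure D4:**
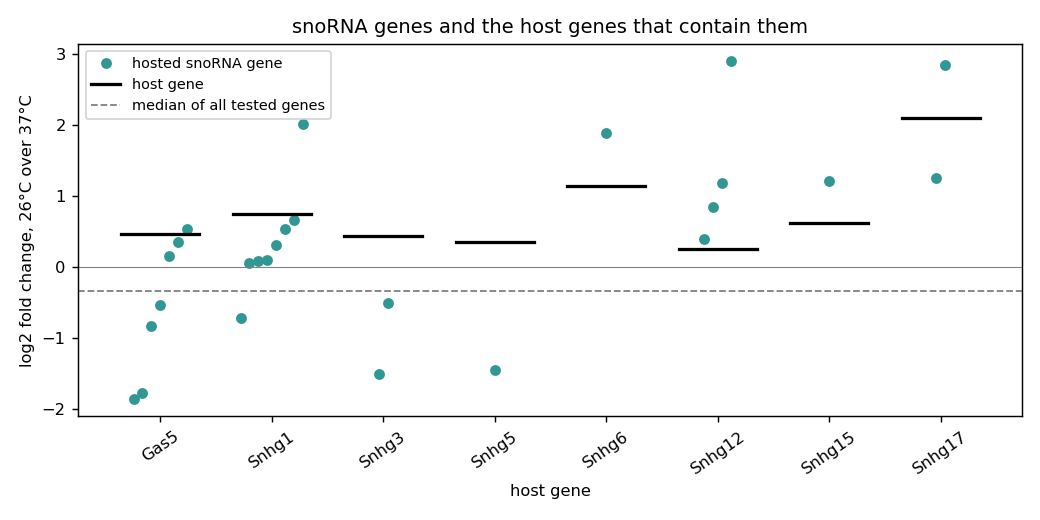
Log2 fold change (26°C over 37°C) of the tested snoRNA genes (points) and of the host gene that contains them (black bars), by host; the dashed line is the median of all tested genes. Both snoRNA genes of Snhg17 are above 1, whereas those of Snhg3 and Snhg5 are below 0.

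In Snhg17, the host that rose, both snoRNA genes had positive values. Gm23925 was at 13.3, 9.22 and 11.3 TPM without and at 51.7, 35.4 and 11.9 TPM with cold acclimation (log2 fold change 1.26 ± 0.50; limma, adjusted p = 0.11, and 0.044 with the replicate as a term). Gm24411 was at 11.1, 0 and 5.71 TPM without and at 34.4, 46.6 and 17.2 TPM with cold acclimation, so that its conditions did not overlap (log2 fold change 2.85 ± 0.87; limma, adjusted p = 0.055, with 0.044 after rescaling and 0.030 with the replicate as a term). In both, cold-acclimated replicate 3 was the lowest of its group, as it was for Snhg17 itself. Snora9 in Snhg15 was at 5.48, 11.0 and 18.1 TPM without and at 28.7, 25.1 and 22.8 TPM with cold acclimation, again without overlap (log2 fold change 1.21 ± 0.40; limma, adjusted p = 0.066, with 0.034 after rescaling and 0.041 with the replicate as a term). Snord87 in Snhg6 rested on 0 to 3 reads at 37°C and 11, 9 and 2 reads at 26°C (log2 fold change 1.89 ± 0.77; limma, adjusted p = 0.12).

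Among the snoRNA genes of Gas5, Snhg1 and Snhg3 there were log2 fold changes of both signs, and both of those in Snhg3 were negative. In Gas5, the most covered gene, Snord78, was at 59.7, 68.2 and 112 TPM without and at 80.6, 133 and 90.5 TPM with cold acclimation (log2 fold change 0.36 ± 0.32; limma, adjusted p = 0.45), and Gm23212 had a log2 fold change of 0.17 ± 0.45 (adjusted p = 0.82). Snord80, also in Gas5, fell from 6, 12 and 18 reads to 5, 3 and 1 reads (log2 fold change -1.86 ± 0.49; limma, adjusted p = 0.037), a call that was lost after rescaling (adjusted p = 0.083). In Snhg1, Gm25855 (log2 fold change 0.54 ± 0.38; adjusted p = 0.35) and Gm23246 (0.09 ± 0.29; adjusted p = 0.85) were the most covered, and Gm22744, with 0 reads in every non-acclimated library and 5, 1 and 1 reads in the cold-acclimated ones, was called upregulated (limma, adjusted p = 0.038) on counts too low to give a ratio. Snora73a and Snora73b in Snhg3 were at 22.7 and 17.0 TPM in non-acclimated replicate 3, the library in which Snhg3 itself stood apart, and between 1.43 and 7.89 TPM in all others (log2 fold changes -0.50 ± 0.50 and -1.50 ± 0.50; limma, adjusted p = 0.51 and 0.069). With the replicate as a term, Snora73b was called downregulated (limma, adjusted p = 0.043).

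In Snhg12, whose own level hardly differed between the means, all 4 snoRNA genes had positive log2 fold changes. Snord99 (0.40 ± 0.44; limma, adjusted p = 0.55) and Snora16a (1.19 ± 0.54; adjusted p = 0.15) were the most covered, and Snora44 rose from 0, 0 and 3 reads to 13, 12 and 8 reads (limma, adjusted p = 0.012). Snord50a in Snhg5 rested on 0 to 7 reads per library (log2 fold change -1.45 ± 0.71; limma, adjusted p = 0.18). Snord50b in Snhg5 and Snora24 in Snhg8 were listed at 0 in every library. The gene length read from the Snhg8 values was 785 bases, the whole distance from its start to its end, so Snora24 lay inside the counted part of its host. Snord80, Gm22744 and Snora44, and likewise Naf1 and Rptor, were named because they were called, after their values were seen.

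Other genes reached into 2 of the hosts, found after the values were seen. Mir6516, a microRNA gene on the strand of Snhg20 and within 110 of its 2173 bases, was at 5.30, 3.32 and 14.4 TPM without and at 21.0, 17.2 and 15.1 TPM with cold acclimation (log2 fold change 1.32; limma, adjusted p = 0.079, and 0.044 with the replicate as a term). As for Snhg20, the lowest library was non-acclimated replicate 2, and replicate 3 was the lowest of the cold-acclimated ones. The highest library was cold-acclimated replicate 1 for Mir6516 and cold-acclimated replicate 2 for Snhg20. Zbtb37, a zinc finger gene on the opposite strand, overlaps Gas5 over 262 bases and was at most 1.54 TPM, far below Gas5. The strand setting of the counting is not given in the sources used here.

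Among 11 other noncoding snoRNA hosts 8 were tested, and Snhg16 was the 1 called. It was at 12.7, 16.5 and 16.4 TPM without and at 73.5, 68.7 and 47.5 TPM with cold acclimation, a log2 fold change of 1.97 ± 0.26 (limma, adjusted p = 0.0074), beside the 2.11 of Snhg17. Snhg14, a host gene of the imprinted Prader-Willi region, was the lowest of this list with a log2 fold change of -0.81 ± 0.30 (limma, adjusted p = 0.094) and was called downregulated by voom, and Epb41l4aos had 0.81 ± 0.35 (adjusted p = 0.14). Of 169 tested protein-coding genes that hold a snoRNA gene, 5 were called upregulated and 14 downregulated, with a median of 0.01, and after rescaling the split was 18 to 7. With the replicate as a term the numbers were 9 and 18.

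**Figure D5:**
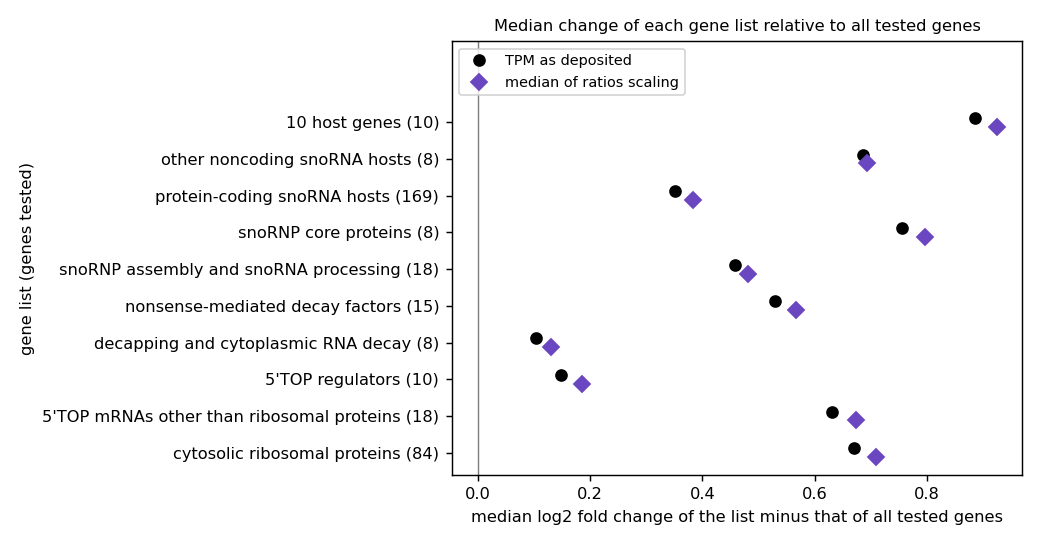
Median log2 fold change of each gene list minus the median of all tested genes, with TPM as deposited (black circles) and after median of ratios scaling (purple diamonds); the number of genes tested is in brackets. The 10 host genes lie at 0.89 and 0.92, and all other lists lie between 0.10 and 0.80.

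The proteins that snoRNAs bind were compared next. Of 8 snoRNP core protein genes 1 was called upregulated, Nop58, a core protein of box C/D particles, which went from 148, 199 and 240 TPM to 320, 373 and 484 TPM (log2 fold change 1.01 ± 0.27; limma, adjusted p = 0.040). Fbl, the methyltransferase fibrillarin, had 0.90 ± 0.34 (limma, adjusted p = 0.097) and Dkc1, the pseudouridine synthase dyskerin, 0.72 ± 0.31 (adjusted p = 0.14), and after rescaling all 3 were called. Of 18 genes for snoRNP assembly and snoRNA processing, 2 were called upregulated and 2 downregulated. Nufip1, a scaffold of box C/D assembly, rose from 24.6, 25.4 and 31.6 TPM to 71.0, 67.1 and 72.5 TPM (log2 fold change 1.34 ± 0.21; limma, adjusted p = 0.010), and Naf1, an assembly factor of H/ACA particles, rose by 1.04 ± 0.28 (adjusted p = 0.039). The helicases Ruvbl1 and Ruvbl2, which act in the same assembly, fell (log2 fold change -1.35 ± 0.36 and -1.05 ± 0.28; limma, adjusted p = 0.038 and 0.037), but neither was called after rescaling (adjusted p = 0.072 and 0.093). The list thus moved in both directions, with a median of 0.12.

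Of 15 nonsense-mediated decay factors 0 were called by limma with TPM as deposited, 5 had an unadjusted p under 0.05, all higher in cold-acclimated cells, and limma's voom on the recovered reads called 5 upregulated. Their median was 0.19. Smg5, an adaptor that binds the phosphorylated helicase Upf1, had a log2 fold change of 0.96 ± 0.31 (limma, adjusted p = 0.062), and Smg1, the kinase of Upf1, had 0.68 ± 0.26 (adjusted p = 0.097). After rescaling 5 were called as well. Of 8 decapping and cytoplasmic decay genes, Dcp2, the decapping enzyme, fell from 33.1, 38.3 and 22.2 TPM to 12.8, 11.0 and 11.6 TPM (log2 fold change -1.30 ± 0.27; limma, adjusted p = 0.019), and so did its enhancer Edc3 (-1.02 ± 0.23; adjusted p = 0.023). Both calls were lost after rescaling (limma, adjusted p = 0.053 and 0.079). Edc4, a scaffold of the same complex, had 0.84 ± 0.22 (limma, adjusted p = 0.035), under the size limit.

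Of 10 regulators of 5′TOP RNAs, 1 was called upregulated and 2 downregulated. Cnbp, which binds near the 5′ end of such RNAs, rose from 489, 698 and 644 TPM to 1253, 1318 and 1380 TPM (log2 fold change 1.12 ± 0.23; limma, adjusted p = 0.019). Tia1, a translational repressor of such RNAs, fell (log2 fold change -1.51 ± 0.34; limma, adjusted p = 0.023), and so did Rptor, the subunit that directs mTOR to its targets, from 17.8, 25.7 and 26.1 TPM to 12.9, 10.6 and 9.6 TPM (limma, adjusted p = 0.035). Neither was called after rescaling (adjusted p = 0.053 and 0.13). Eif4ebp2, which holds back cap-dependent translation, had -0.99 ± 0.26 (limma, adjusted p = 0.035), under the size limit. The 5′TOP messenger RNAs themselves were called in 0 of 18 cases outside the ribosomal proteins and in 0 of 84 ribosomal protein cases by limma with TPM as deposited. At an unadjusted p under 0.05 there were 2 and 1 of them, and voom called 2 and 0 upregulated. Their medians were 0.29 and 0.33, below the 0.55 of the host genes. Among the 18, Vim (log2 fold change 0.98 ± 0.29; limma, adjusted p = 0.049), Eif3e (0.67 ± 0.20; adjusted p = 0.052) and Eef1b2 (0.37 ± 0.22; adjusted p = 0.26) had the smallest p. Over these lists and the other noncoding hosts together, without the ribosomal proteins, 5 genes were called upregulated and 6 downregulated, and 1 to 2 and 0 were when any 1 library of replicates 1 and 2 was left out. Calls over all tested genes fell as well in those fits, from 321 upregulated and 1954 downregulated to 59 to 78 and 345 to 600. What the levels of any of these factors contribute to those of the host genes was not tested.

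The genes most like the host genes were found from the mean profile of the 10 members over the 6 libraries, in which each gene was centred on its own mean of log2(TPM + 1). This profile stood at -0.31, -0.85 and 0.04 in non-acclimated and at 0.36, 0.36 and 0.40 in cold-acclimated replicates 1, 2 and 3, so its lowest point was non-acclimated replicate 2. Of 9733 genes with a mean of at least 5 TPM, the 5 with the highest Pearson correlation were the noncoding gene 4933433G19Rik (r = 0.990), Gm2a (0.981), Gm34071 (0.980), Myl6 (0.980) and Cry2 (0.974), over 6 libraries that fall into 2 conditions. Gm2a encodes the GM2 ganglioside activator, Myl6 a myosin light chain and Cry2 a repressor of the circadian clock. Cry2 was at 9.09, 3.65 and 9.52 TPM without and at 20.6, 21.2 and 23.3 TPM with cold acclimation, and was the 1 of the 5 that was called (log2 fold change 1.52 ± 0.36; limma, adjusted p = 0.025). With this many genes compared over 6 libraries, such values are a description only.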

How the data were processed

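Poly(A)+ RNA of D10 T cells was measured in 3 non-acclimated (37°C, 24 h) and 3 cold-acclimated (26°C, 24 h) replicates, grouped by their labels. Per the submitters' processing notes, the authors used FastQC 0.11.7, Trimmomatic 0.38, HISAT2 2.1.0 and featureCounts 1.6.3 with GRCm39, on strand-specific paired-end libraries. The values as deposited by the authors are TPM, counts divided by gene length and scaled to the same total in each library, with no further scaling between libraries. The annotation release, gene lengths and strand setting were not found in the labels, the file or the methods.

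Each gene's TPM values were whole multiples of a common step, which gave back whole reads for 100% of the 21195 genes above 0 (tolerance 0.001 reads). Library totals were 16899628 to 31290854 reads. limma 3.58.1 in R 4.3.3 was fitted to log2(TPM + 1), with a trended prior variance and without a replicate term, over the 12227 genes whose TPM averaged 1 or more, with Benjamini-Hochberg adjustment over all of them. A gene was called where this p was under 0.05 and the log2 fold change 1 or more in either direction. The procedure was tested on simulated data. Alternatives were a pseudocount of 0.1, no filter, median of ratios scaling, quantile normalization, a replicate block alone and with that scaling, voom on the recovered reads, and leaving out each library. Leaving out both libraries of replicate 3, with and without rescaling, was added after seeing the data.

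Deviations of libraries from their condition's mean correlated across genes at 0.48, 0.50 and 0.51 for equal replicate numbers and at -0.41 to 0.02 for different ones, and the numbers were taken to pair libraries. Old and new extraction batches are mentioned in the labels, but no library is assigned to either.

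The members and the lists were chosen with earlier results of these data known. Named are the 10 members, up to 2 hosted snoRNA genes per host with the highest mean TPM, up to 3 genes of each companion list with the smallest p (protein-coding hosts and ribosomal proteins by counts only), the 5 genes most like the members' profile, and those said to be named after their values were seen. Marker genes were instead named to check the labelled cell type, after their values were seen. A gene of the decay factor list that this rule names is not reported here. snoRNA genes count as hosted when they lie within a host's ends on its strand. Sequences were read with pysam 0.24.0 from GRCm39, places from GENCODE, and start sequences were compared with RefSeq promoters of the same symbol. Python 3.11.15, numpy 2.4.6, pandas 2.3.3, scipy 1.17.1 and matplotlib 3.10.9 were used.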

Additional observations from a re-analysis of the deposited data

How the results depend on the processing

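All 15 alternatives kept Snhg17 called (adjusted p between 0.0026 and 0.044) and called 0 host genes downregulated. The host genes called upregulated, 1 in the report, were 4 with median of ratios scaling, 2 with a replicate block, 5 with both, 3 with voom, 3 without replicate 3 and 6 without replicate 3 after rescaling, with 1 to 2 when each library was left out (Snhg20 added without non-acclimated replicate 3, Snhg6 without cold-acclimated replicate 3). At an adjusted p under 0.05 without a size limit the numbers were 4, 3, 6, 3, 5 and 7, with 1 to 2. The share of all tested genes at that limit was not computed, so these numbers cannot be read against it. With the size limit, 2.63% of all tested genes were called upregulated in the report and 11.5% without replicate 3 after rescaling. The median of the host genes was 1.24 without replicate 3 after rescaling, against 0.55 in the report. The medians of all tested genes in these fits were 0.02 and -0.34, so part of that difference came with the rescaling of all genes. Without non-acclimated replicate 2 the log2 fold changes of Snhg3, Snhg8 and Snhg12 were -0.028, -0.11 and -0.0017. Over all fits that left out libraries with TPM as deposited they ran up to 1.27, 0.71 and 0.42.

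Of the hosted snoRNA genes, 2 were called upregulated and 1 downregulated in the report. The numbers were 1 and 0 with no filter, 4 and 0 with median of ratios scaling and also with quantile normalization, 5 and 3 with a replicate block, 5 and 0 with block and scaling, 1 and 0 with voom, 6 and 0 without replicate 3, and 11 and 0 without replicate 3 after rescaling. Leaving out each library gave 0 to 5 upregulated and 0 to 1 downregulated.

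Of the 88 genes of the companion lists, 5 were called upregulated and 6 downregulated in the report. The numbers were 3 and 2 with no filter, 17 and 0 with median of ratios scaling, 8 and 1 with quantile normalization, 20 and 1 with block and scaling, 17 and 1 with voom, 10 and 6 without replicate 3, and 25 and 3 without replicate 3 after rescaling. Leaving out each library gave 1 to 7 upregulated and 0 to 6 downregulated. Calls over all genes fitted moved as well, from 59 to 1409 upregulated and from 345 to 3088 downregulated across the settings. The cause of these differences was not tested. Fits that leave out a library have fewer samples, and the fit without replicate 3 had 2 residual degrees of freedom. The hosted snoRNA genes rested on a median of 8 reads per library, which limits what could be detected for them.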
